A study of Homo sapiens with 4 samples.

Results

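The 32 genes described here carry glucose into the cell, break it down to pyruvate, and direct pyruvate either to lactate or into the mitochondrion. They are 2 glucose transporters, 17 enzymes of glycolysis and its regulation, 2 lactate dehydrogenases, 2 lactate transporters, and 9 genes of the pyruvate dehydrogenase complex with its kinases and phosphatase. They were chosen by gene name from the authors' deposited table of 34675 genes, in which each of the 32 has 1 row, and all 32 had at least 40 reads. RNA came from MDA-MB-231 cells, an established triple-negative breast carcinoma line, carrying either the empty plasmid (pcDNA-Vector) or a plasmid with FLAG-tagged wildtype LKB1 (pcDNA-FLAG-LKB1 wildtype). Each line gave 2 libraries of total RNA, and all 4 came from subconfluent cells in DMEM with serum on plastic. The titles write mRNA for the vector libraries and fmRNA for the LKB1 libraries, so that naming and the plasmid cannot be told apart. Of the LKB1 libraries 1 carries another run code than the other 3 libraries, and its part in the results was not tested, since the table has no values per library. The labels do not say whether the libraries of a line were separate cultures or whether a line is a clone, and the p-values may therefore reflect technical spread alone.

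Glycolysis splits glucose into pyruvate and yields ATP without oxygen. Lactate dehydrogenase turns pyruvate into lactate, which leaves the cell through proton-coupled carriers, whereas the pyruvate dehydrogenase complex turns it into acetyl-CoA for the mitochondrial cycle. Pyruvate dehydrogenase kinases switch the complex off by phosphorylation and its phosphatases switch it on again. LKB1, the kinase encoded by STK11, activates the energy sensor AMPK, which is known to act on several of these steps, and carcinoma cells are known for high glucose use.

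The table compares the 2 lines once and holds no value for a single library. Folds, log2 folds and adjusted p-values below are those of the authors' deposited table. Its header does not name the direction, which was read as LKB1 line over vector line because STK11 had a fold of 1.54 (log2 0.62, adjusted p = 0.00105; 1321 vector-line and 2112 LKB1-line reads), so every direction rests on that reading. Whether the genes around STK11 on chromosome 19 (1189406 to 1228428, hg19) shifted alike was not tested. The 24 protein-coding genes nearest to BSG, at 571297 to 583493 on that chromosome, had a median log2 fold of 0.19. Those nearest to PGLS, at 17622432 to 17632095, had one of -0.51. Read totals, each the sum of the 2 libraries of a line, were recovered from the steps of the fold column. Totals were found for 30 of the 32 genes, 19 of them under 3000 reads, and 11 above that, where totals are less certain: with deliberately wrong constants 10.4% to 11.9% of genes still found a match under 20000 reads. The LKB1 line was 1.04 times as deep as the vector line. The standard error (SE) given with a log2 fold is the one implied by the deposited p-value, and intervals are 95% intervals from it. Genes with an adjusted p below 0.05 are termed called.

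The material was checked by markers. Of 7 markers of a mesenchymal-like breast carcinoma line all 7 were measured, with at least 1149 reads in a line where totals were recovered. Of these, CAV1 (1.56-fold) and AXL (1.34-fold) were higher in the LKB1 line and MSN (1.47-fold) was lower, so 3 markers of the line itself differed between the groups. The 7 luminal epithelial markers together had 956 vector-line and 923 LKB1-line reads, and none of the 7 was called. That sum joins opposite moves. CDH1 had 431 and 278 reads, whereas GATA3 had 259 and 290, EPCAM 152 and 209 and ERBB3 101 and 134. ESR1, PGR and FOXA1 had at most 12 reads in a line. Of 8 endothelial markers measured, 7 were lower in the LKB1 line and none higher, with summed totals of 2148 and 333 reads, single markers at 53 to 1197 reads in the vector line and 4 to 129 in the LKB1 line, and none at 0. Fibroblast markers summed to 464 and 420 reads, with 2 of 6 lower, and leukocyte markers to 2357 and 1746, with 1 of 4 lower and 1 higher. The leukocyte sum was mostly CD68 (1587 and 1400 reads) and LCP1 (693 and 200, lower). CD14 had 67 and 144 reads (higher) and PTPRC only 10 and 2. A test for swapped samples found 1 group of 2 at odds with its stated line. Whether these differences in material have a part in any result below was not tested, and fewer cells of a type cannot be told apart from less RNA per cell.

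Of the 32 genes 3 fell and 2 rose in the LKB1 line, and 27 were not called. HK2 (hexokinase 2), PFKFB4 (a maker and breaker of the phosphofructokinase activator fructose-2,6-bisphosphate) and SLC16A1 (the lactate and pyruvate carrier MCT1) fell. PDHA1 (the catalytic alpha subunit of pyruvate dehydrogenase) and PDP1 (the phosphatase that reactivates it) rose. The 5 calls are 15.6% of the 32 genes, beside 5.79% of all genes of the table (2.55% higher, 3.24% lower), 12.6% of genes with at least 40 reads (5.77% higher, 6.86% lower) and 13.2% of the 12487 protein-coding genes among these (5.91% higher, 7.3% lower), so the share of called genes lay near that of like genes. The median log2 fold of the 32 genes was -0.05, beside -0.02 for the protein-coding genes with at least 40 reads, and 20 of the 32 lay within a fold of 1.25 in either direction. At an unadjusted p under 0.05 there were 6 lower and 7 higher genes. The share of all genes at that cut was not computed, and the shares above are at an adjusted p, so no excess is read from this count.

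**Figure D1:**
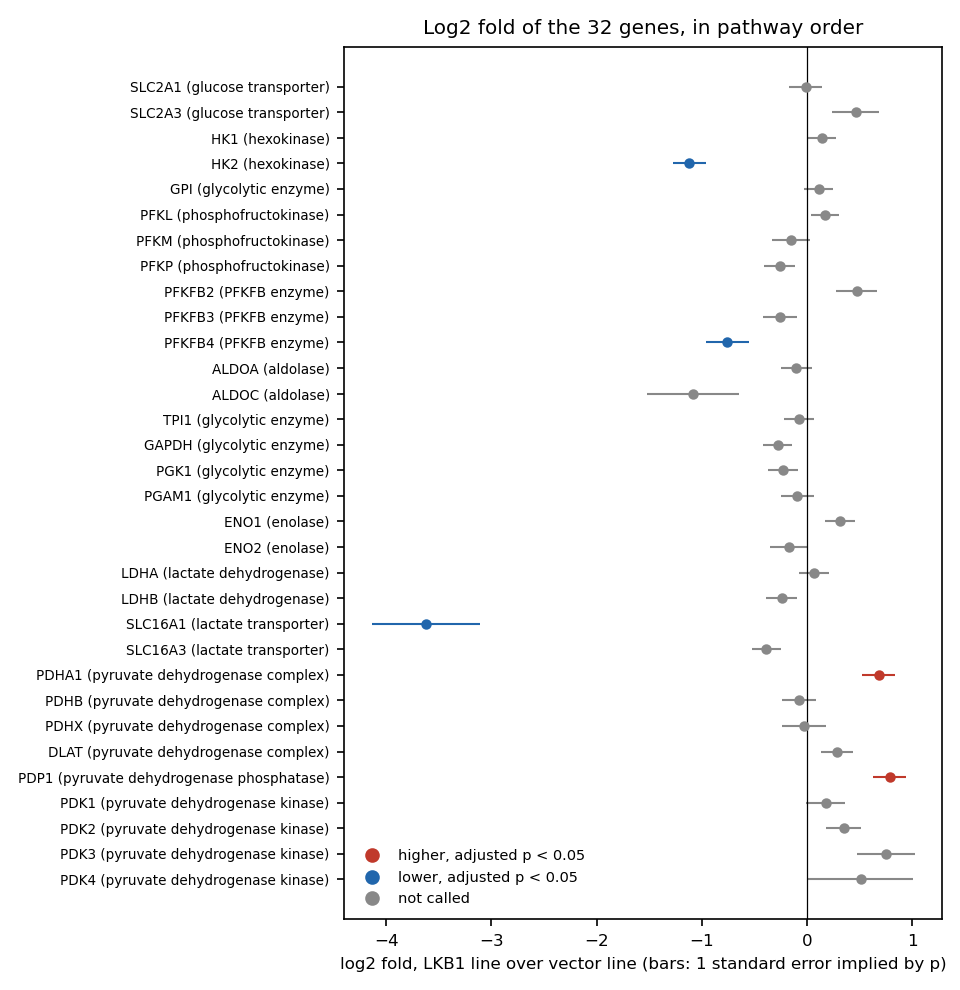
Log2 fold of each of the 32 genes (horizontal axis, LKB1 line over vector line), in pathway order from glucose uptake at the top to the pyruvate dehydrogenase kinases at the bottom; points are the deposited values and bars 1 standard error implied by p. SLC16A1 at -3.62, HK2 at -1.12 and PFKFB4 at -0.76 are the lower calls, and PDP1 at 0.78 and PDHA1 at 0.68 the higher ones.

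Glucose uptake genes were not called. SLC2A1, which encodes the widespread transporter GLUT1, had 4240 vector-line and 4370 LKB1-line reads. Once depth was taken into account these totals were nearly level, with a log2 fold of -0.01 ± 0.16 (SE) and an interval of the fold of 0.80 to 1.23. SLC2A3, the high-affinity transporter GLUT3, had 166 and 238 reads, a log2 fold of 0.46 ± 0.22 with an adjusted p of 0.333 in the authors' deposited table. A pseudogene copy, SLC2A3P1, had 366 and 390 reads in the same lines, and SLC2A14, a near-identical paralog, 0 and 1, so how reads were split between the copies is uncertain. Per kilobase of transcript SLC2A1 made up 96.5% of the pair with the vector and 95.1% with LKB1.

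The 2 hexokinases, which trap glucose in the cell as its phosphate, differed. HK2 (ENSG00000159399.4, chromosome 2, 75061108 to 75120486, plus strand, hg19), the inducible form abundant in many tumours, had 1925 vector-line and 921 LKB1-line reads. That is 2.17-fold lower with LKB1 (log2 -1.12 ± 0.16, adjusted p = 8.86e-11 in the authors' deposited table). HK1, the housekeeping form, had 4399 and 5037 reads and a log2 fold of 0.14 ± 0.14 (adjusted p = 1 in the deposited table). The log2 fold of HK2 was 1.26 below that of HK1 (difference -1.26, interval -1.66 to -0.85, taking the errors of the genes as independent; 8 such differences between related genes were computed, without p-values). By reads per kilobase of transcript HK2 was 21.5% of the 2 hexokinases with the vector and 10.2% with LKB1, and by coding length 30.4% and 15.5%. The 24 protein-coding genes nearest to HK2 had a median log2 fold of -0.11, with 2 of them lower and none higher.

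The 3 phosphofructokinases, which catalyse the committed step of glycolysis, were not called. The liver-type PFKL had 2683 and 3139 reads (log2 fold 0.17 ± 0.14), the muscle-type PFKM 877 and 819 (-0.15 ± 0.18) and the platelet-type PFKP 4652 and 4039 (-0.26 ± 0.15). PFKP was the most abundant of them per kilobase in each line, at 59.5% with the vector and 53.3% with LKB1, and PFKM the least at 9.23% and 8.90%.

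The PFKFB enzymes set the level of fructose-2,6-bisphosphate, which stimulates phosphofructokinase, and here their members parted. PFKFB4 (ENSG00000114268.7, chromosome 3, 48555117 to 48599448, minus strand, hg19) had 355 vector-line and 218 LKB1-line reads. It was 1.69-fold lower with LKB1 (log2 -0.76 ± 0.20, adjusted p = 0.00539 in the authors' deposited table). With a coefficient of variation of 0.2 between libraries assumed for every gene the adjusted p was 0.349 and the call was lost. PFKFB3, the form with the highest kinase over phosphatase activity, had 765 and 665 reads (log2 -0.26 ± 0.16, adjusted p = 0.621). PFKFB2, the heart-type form and a known AMPK substrate, had 292 and 421 reads (log2 0.47 ± 0.19, adjusted p = 0.167 in the deposited table). The log2 fold of PFKFB4 lay 1.23 below that of PFKFB2 (difference -1.23, interval -1.78 to -0.68). Against PFKFB3 the difference was -0.50, with an interval of -1.01 to 0.00 that reaches 0. PFKFB3 was the largest of the 3 per kilobase, at 54.9% with the vector and 55.3% with LKB1, while PFKFB4 took 31.9% and 22.6% and PFKFB2 13.2% and 22.1%. By coding length PFKFB3 took 52.4% and 49.6%, so the order of its shares between the lines depends on the length used.

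The bases before the start of HK2 and PFKFB4, which fell, and of PDHA1, which rose, are shown because HK2 and PFKFB4 are textbook targets of the hypoxia-inducible factors and MYC-type E-box proteins act on this pathway. Each run is the 250 bases upstream of a RefSeq start (GRCh38.p14), 5′ to 3′ along the gene's strand, with matches on either strand to ACGTG or GCGTG, the core letters of the hypoxia response element, in capitals; HK2 has 2 listed starts.
HK2, first start (chr2:74833877-74834126, plus strand): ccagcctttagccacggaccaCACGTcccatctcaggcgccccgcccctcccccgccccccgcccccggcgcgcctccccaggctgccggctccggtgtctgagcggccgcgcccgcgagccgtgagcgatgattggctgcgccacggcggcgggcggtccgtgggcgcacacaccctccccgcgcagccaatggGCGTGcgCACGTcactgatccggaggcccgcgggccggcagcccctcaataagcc
HK2, second start (chr2:74834920-74835169, plus strand): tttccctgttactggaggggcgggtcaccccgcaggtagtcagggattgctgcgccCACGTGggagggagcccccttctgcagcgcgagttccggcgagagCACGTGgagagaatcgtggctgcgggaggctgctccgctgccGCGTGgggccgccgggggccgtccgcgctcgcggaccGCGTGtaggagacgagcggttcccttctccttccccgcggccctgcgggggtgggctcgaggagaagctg
PFKFB4 (chr3:48556804-48557053, minus strand): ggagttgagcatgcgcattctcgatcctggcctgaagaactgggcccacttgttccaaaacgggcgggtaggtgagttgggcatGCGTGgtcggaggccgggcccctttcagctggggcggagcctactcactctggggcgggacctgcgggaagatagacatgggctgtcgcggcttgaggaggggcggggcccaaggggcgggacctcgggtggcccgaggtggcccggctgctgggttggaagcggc
PDHA1 (chrX:19343677-19343926, plus strand): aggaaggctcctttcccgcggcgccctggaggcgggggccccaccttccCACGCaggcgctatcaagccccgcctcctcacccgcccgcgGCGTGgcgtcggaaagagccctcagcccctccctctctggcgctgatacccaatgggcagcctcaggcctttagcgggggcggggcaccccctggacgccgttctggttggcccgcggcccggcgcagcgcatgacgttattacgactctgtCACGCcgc

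Counting both strands, the 2 HK2 windows held 3 and 6 matches, the PFKFB4 window 1 and the PDHA1 window 3. The E-box CACGTG overlaps the core on each strand, so each E-box counts as 2 core matches; the second HK2 window held 2 E-boxes and the other windows shown none. Of all 35116 promoter windows of the same length, 43.2% held a core match and 6.34% an E-box. RefSeq windows were matched by symbol for 28 of the 32 genes, all but SLC16A1, PDP1, SLC2A3 and PFKFB2. Of their 57 windows 32 (56.1%) held a core match and 8 (14.0%) an E-box. These shares take no account of GC content, and some genes have several windows, so no excess over all windows is read from them. Core matches occurred in genes that fell, rose and were not called, and SLC2A1, PGAM1, PDK4 and LDHB had none in their windows. A match in these letters is a description, not a binding site.

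The other enzymes of glycolysis were not called. GPI, the isomerase before phosphofructokinase, had 4872 and 5465 reads (log2 fold 0.11 ± 0.14). The abundant aldolase ALDOA had 11091 and 10726 reads (-0.10 ± 0.15), and TPI1, the triose isomerase, 4400 and 4337 (-0.08 ± 0.14). PGK1, the first ATP-forming enzyme, had 7167 and 6372 reads (-0.23 ± 0.14) with another possible pair of totals, and the mutase PGAM1 963 and 940 (-0.09 ± 0.15), the smallest of several possible pairs. No totals were recovered for GAPDH and ENO1. GAPDH had a log2 fold of -0.28 ± 0.14 (adjusted p = 0.352) and the enolase ENO1 one of 0.31 ± 0.14 (adjusted p = 0.288 in the authors' deposited table). ENO2, the neuronal enolase, had 913 and 844 reads (log2 -0.17 ± 0.18). ALDOC, the brain-type aldolase, had 41 and 20 reads, which gave a log2 fold of -1.08 ± 0.44 and an adjusted p of 0.16 in the deposited table. Its value was as low as that of HK2, but at this depth the interval of its fold ran from 0.26 to 0.85. ALDOA was 99.7% of the 2 aldolases per kilobase with the vector and 99.8% with LKB1. Pseudogenes of these genes also had rows: 23 of GAPDH together had 89 and 72 reads, 5 of LDHA 89 and 103, and 4 of ENO1 136 and 49. A few reads of these genes may therefore have been counted elsewhere. Of the 4 ENO1 pseudogene rows 1 was called, and their sum was lower with LKB1, whereas ENO1 itself stood at 0.31.

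**Figure D2:**
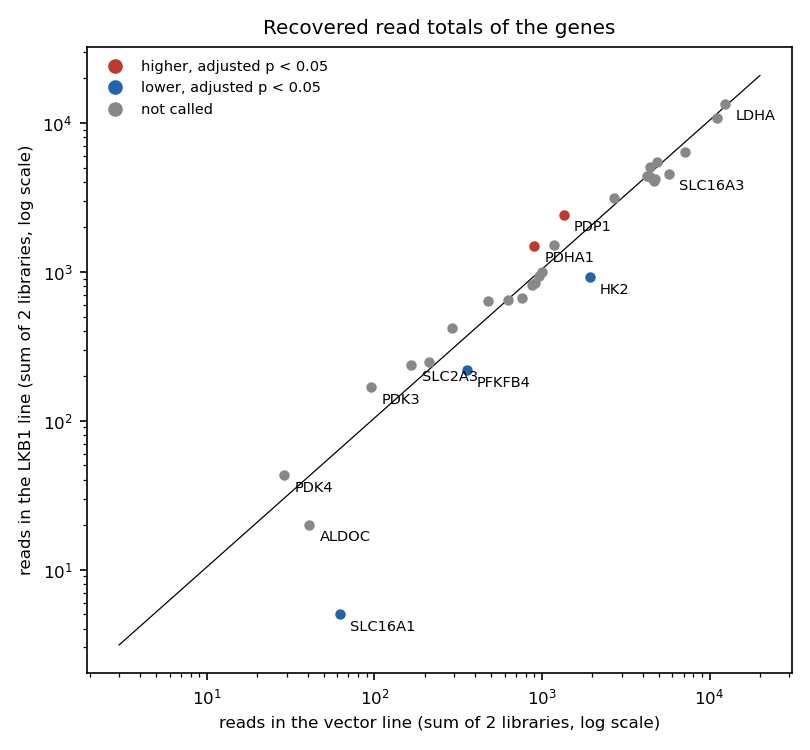
Recovered read totals of 30 genes in the vector line (horizontal axis) and the LKB1 line (vertical axis), both on log scales and each the sum of 2 libraries; the line is the depth ratio of 1.04. Most genes lie along the line, SLC16A1 (62 and 5 reads) and HK2 (1925 and 921) lie below it, and PDP1 (1346 and 2411) and PDHA1 (895 and 1495) above it.

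Lactate dehydrogenases were not called. LDHA, the form that favours lactate, had 12353 and 13453 reads, a log2 fold of 0.07 ± 0.14 with an interval of the fold of 0.86 to 1.27. LDHB, the heart-type form, had 4756 and 4184 reads (-0.24 ± 0.15, adjusted p = 0.631 in the authors' deposited table). Per kilobase LDHA was 62.3% of the pair with the vector and 67.2% with LKB1.

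The lactate carriers held the largest change among the 32 genes. SLC16A1 (ENSG00000155380.7, chromosome 1, 113454469 to 113499635, minus strand, hg19) had 62 vector-line and 5 LKB1-line reads. In the authors' deposited table this was 12.3-fold lower with LKB1 (log2 -3.62 ± 0.52, adjusted p = 3.51e-10), and the ratio of the totals per depth was 12.9 with an exact (Clopper-Pearson) interval of 5.24 to 41.1 that covers counting error only. SLC16A3, which encodes MCT4, the exporter typical of strongly glycolytic cells, had 5717 and 4550 reads. It stood at log2 -0.39 ± 0.14 (adjusted p = 0.0716 in the deposited table) and was not called, but it passed when p-values were adjusted over the 14392 genes with at least 40 reads (adjusted p = 0.0329) or over protein-coding genes (adjusted p = 0.043). SLC16A1 was the minor carrier in each line, at 1.18% of the pair per kilobase with the vector and 0.12% with LKB1. The log2 fold of SLC16A1 was 3.24 below that of SLC16A3 (difference -3.24, interval -4.29 to -2.19). The 24 protein-coding genes nearest to SLC16A1 had a median log2 fold of 0.04. A fall of this size was also seen outside the pathway. The 7 endothelial markers that were called fell by 2.42-fold (KDR) to 13.0-fold (TEK, 53 vector-line and 4 LKB1-line reads). Whether the fall of SLC16A1 is linked to that difference in material was not tested. SLC16A1 remained called with an assumed variation of 0.3 (adjusted p = 0.000104), the only member of the 32 that did, and of the 32 genes HK2 (adjusted p = 0.00961) and SLC16A1 were called at 0.2, where 2.52% of all genes were.

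**Figure D3:**
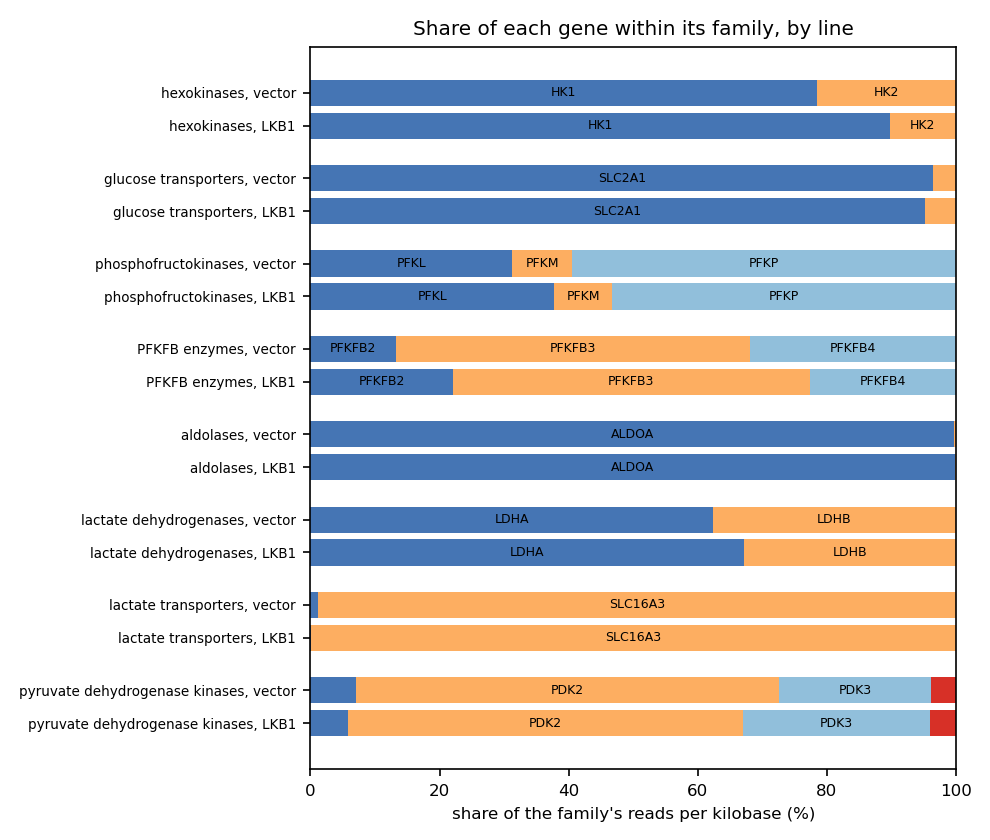
Share of each gene in its family's reads per kilobase of transcript (horizontal axis, percent), for the vector line and the LKB1 line of each family. Colours separate the genes of a family, which run from left to right in alphabetical order of symbol. Narrow unlabelled segments are SLC2A3, ALDOC, SLC16A1, PDK1 (left) and PDK4 (right). HK2 takes 21.5% with the vector and 10.2% with LKB1, and SLC16A3 takes nearly all of the carrier pair in each.

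In the pyruvate dehydrogenase complex 1 of 4 subunit genes rose and none fell. PDHA1 (ENSG00000131828.9, chromosome X, 19362011 to 19379823, plus strand, hg19) had 895 vector-line and 1495 LKB1-line reads. It was 1.61-fold higher with LKB1 (log2 0.68 ± 0.16, adjusted p = 0.00052 in the authors' deposited table). Its chromosomal neighbours were higher as well: the 24 nearest protein-coding genes had a median log2 fold of 0.77, and 16 of them were called higher and 1 lower. Less that median, PDHA1 stood at -0.09. PDHB, the beta subunit that pairs with PDHA1 in the first enzyme of the complex, had 1005 and 991 reads (log2 -0.08 ± 0.17). DLAT, the acetyltransferase core, had 1188 and 1505 reads (0.28 ± 0.16, adjusted p = 0.481), and PDHX, which anchors the dihydrolipoamide dehydrogenase to that core, 629 and 641 (-0.03 ± 0.21). The log2 fold of PDHA1 exceeded that of its partner PDHB by 0.76 (interval 0.31 to 1.21) and that of PDHX by 0.71 (0.19 to 1.23). Against DLAT the difference of 0.40 had an interval of -0.03 to 0.83. Less the medians of their own neighbours, PDHB stood at -0.11, PDHX at -0.16 and DLAT at 0.14, beside -0.09 for PDHA1. On that scale PDHA1 did not stand apart from PDHB or PDHX.

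PDP1 (ENSG00000164951.11, chromosome 8, 94870035 to 94938294, plus strand, hg19), the calcium-stimulated phosphatase that removes the inhibitory phosphates from the complex, had 1346 vector-line and 2411 LKB1-line reads. In the authors' deposited table it was 1.72-fold higher with LKB1 (log2 0.78 ± 0.15, adjusted p = 1.87e-05). Its 24 neighbours had a median log2 fold of 0.37, with 4 higher and 1 lower, and less that median PDP1 stood at 0.41. With an assumed variation of 0.2 the calls of PDP1 (adjusted p = 0.199) and PDHA1 (adjusted p = 0.4) were lost.

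None of the 4 kinases that oppose PDP1 was called, and all 4 had log2 folds above 0. PDK3, on the X chromosome (24483338 to 24557954, hg19), had 96 and 168 reads and a log2 fold of 0.75 ± 0.28 (adjusted p = 0.0937 in the authors' deposited table). It passed when adjusted over genes with at least 40 reads (adjusted p = 0.0432) or with an assumed variation of 0.1 (adjusted p = 0.0248), but not over protein-coding genes (adjusted p = 0.0563) or with an assumed variation of 0.2 (adjusted p = 0.52). Its 24 neighbours had a median of 0.91, with 17 higher and 2 lower. PDK2 had 479 and 634 reads (0.35 ± 0.16, adjusted p = 0.319). PDK1, a target of hypoxia-inducible factors, had 211 and 248 reads (0.18 ± 0.19), and PDK4, the starvation-induced form, 29 and 43 (0.51 ± 0.50). The intervals of PDK1 and PDK4 include a fold of 1, and with PDK4 the depth does not allow a finer statement. PDK2 was the most abundant kinase per kilobase in each line, at 65.6% and 61.2%. By coding length PDK2 remained first at 60.0% and 59.1%, but PDK1 took 24.7% in the vector line where it took 7.01% by its long transcript. The median log2 folds of the neighbours of PDK1, PDK2 and PDK4 were 0.21, 0.12 and 0.29, also above 0. The shared direction of the 4 kinases did not hold less the medians of their neighbours: PDK3 then stood at -0.16 and PDK1 at -0.03, and PDK2 and PDK4 at 0.23 and 0.21.

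**Figure D4:**
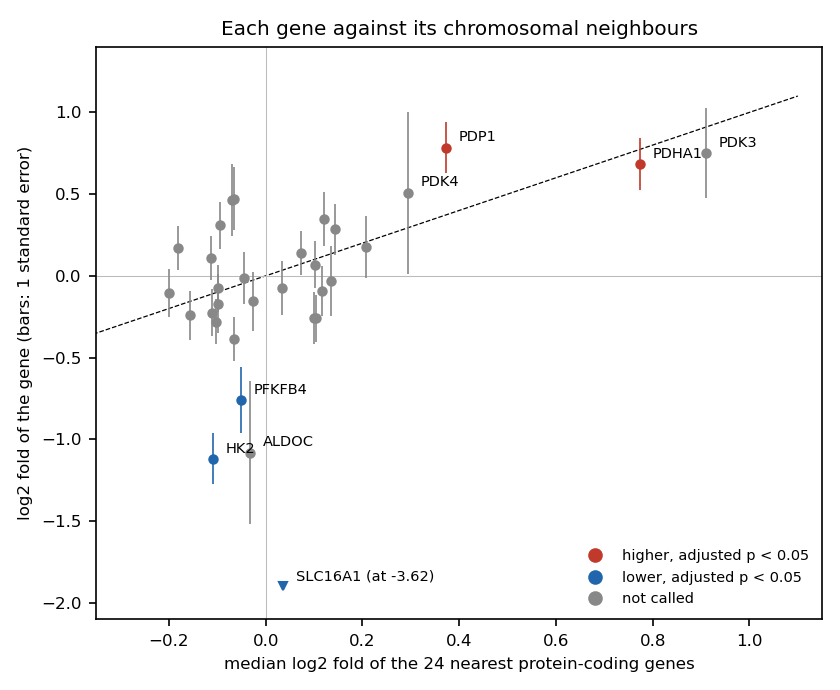
Log2 fold of each of the 32 genes (vertical axis, bars 1 standard error) against the median log2 fold of its 24 nearest protein-coding genes with at least 200 reads (horizontal axis); the dashed line marks equal values and the triangle stands for SLC16A1, which lies below the axis at -3.62. PDHA1 and PDK3 lie close to the dashed line at neighbour medians of 0.77 and 0.91, whereas HK2, PFKFB4 and SLC16A1 lie far below it at medians of -0.11 to 0.04.

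The called genes also differed in how their chromosomal neighbours behaved. The 3 that fell did so among neighbours with medians of -0.11 to 0.04, and less those medians their log2 folds were -1.01 for HK2, -0.71 for PFKFB4 and -3.66 for SLC16A1. PGK1, also X-linked but on the long arm, had neighbours with a median of -0.11 and none higher.

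The rest of the pathway was taken from a list of 52 further genes, of which 46 had reads and 29 at least 40. Of the 46, 4 rose and 2 fell in the authors' deposited table. Among the 29, 4 rose and 0 fell, beside 5.77% higher and 6.86% lower of all genes with at least 40 reads. SLC2A12, the glucose transporter GLUT12, had 141 and 353 reads (log2 1.27 ± 0.23, adjusted p = 3.28e-06). PCK2, the mitochondrial phosphoenolpyruvate carboxykinase, had 252 and 403 reads (0.62, adjusted p = 0.0176), and HKDC1, a hexokinase relative, 192 and 336 (0.75, adjusted p = 0.0257). The orphan carrier SLC16A4 had 33 and 75 reads (1.12, adjusted p = 0.0269). The 2 that fell had few reads: the glucokinase regulator GCKR had 22 and 3 (ratio 7.62, counting interval 2.29 to 39.8), and the D-lactate dehydrogenase LDHD 27 and 7 (adjusted p = 0.0477). PKM, the pyruvate kinase of the last step of glycolysis, had a log2 fold of 0.05 ± 0.14 with no total recovered. BSG, the chaperone that brings MCT1 and MCT4 to the cell surface, had 4839 and 5637 reads (0.16 ± 0.14), and SLC16A7, the carrier MCT2, 210 and 146 (-0.58 ± 0.23, adjusted p = 0.144). The mitochondrial pyruvate carrier genes MPC1 and MPC2 had log2 folds of 0.56 ± 0.23 (adjusted p = 0.162) and 0.33 ± 0.19 (adjusted p = 0.54), and DLD, the dihydrolipoamide dehydrogenase of the complex, one of 0.30 ± 0.17. The other phosphatase gene, PDP2, had 415 and 414 reads (-0.06).

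**Figure D5:**
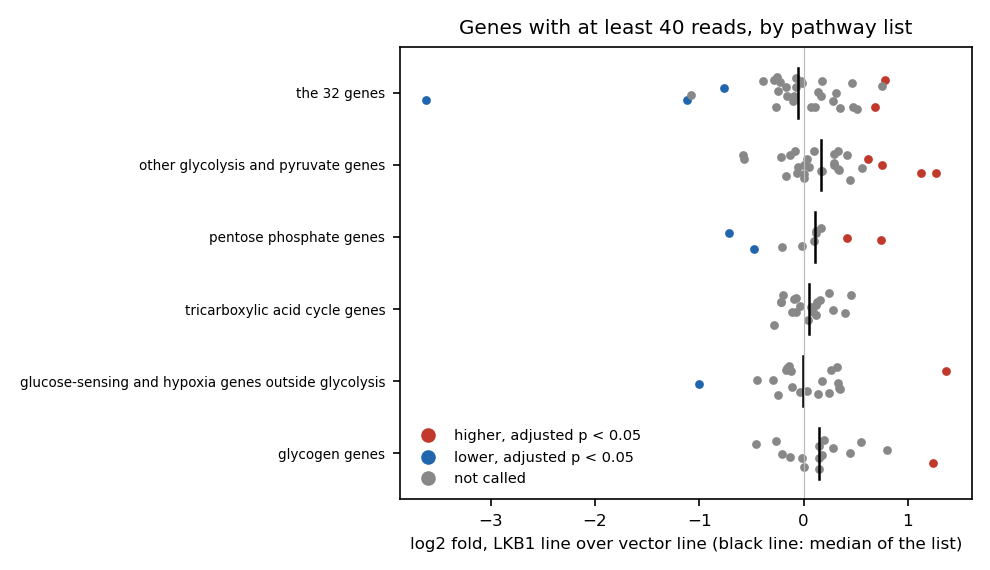
Log2 folds of single genes with at least 40 reads (horizontal axis) for the 32 genes and 5 other metabolic lists; each point is a gene, black bars are medians and the vertical jitter has no meaning. The medians lie between -0.05 and 0.16, and SLC16A1 is the point at the far left of the first list.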

How the data were processed

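RNA of 4 libraries (2 of the vector line, 2 of the LKB1 line) was compared by the submitters, and the deposited table holds that 1 comparison. Tools listed, without roles, in the submitters' processing notes are TopHat2 2.0.6, CASAVA 1.8.2 and edgeR 2.6.0, with the build hg19. How reads were counted, the strand setting and any filter were not stated in the labels. Per the file headers, each gene has a deposited ratio (the fold), the log2 of that fold, and p-values before and after adjustment. The adjusted p equals a Benjamini-Hochberg adjustment over all 34675 genes to within 1.9e-06.

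Whole read totals per line were recovered with prior counts of 0.255 (LKB1) and 0.245 (vector) reads for 96.6% of the 28242 genes with reads under 3000 reads and 99.7% under 20000; with constants shifted by 0.1% the shares were at most 0.212% and 11.9%. Of several possible pairs the smallest was taken. Totals carry no spread between libraries. The SE is the log2 fold divided by the normal deviate of its p, and is approximate where p is near 1. The exact test with an assumed coefficient of variation (0.1, 0.2 or 0.3) is negative binomial on the line totals. It and the recovery were run on data simulated with the same fold formula and the variation the test assumed (0.2). That run checks the code alone and says nothing of the spread between these libraries. Genes with no recovered total passed every minimum on reads, and the exact test took 20000 vector-line reads for them. Transcript and coding lengths and GC came from GENCODE 29 (GRCh38) by Ensembl identifier, using the longest principal transcript. Python 3.11.15, numpy 2.4.6, scipy 1.17.1 and pandas 2.3.3 were used.

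The members and lists were chosen with earlier results of these data known. Named were all 32 members, up to 4 called genes with the smallest p of each other list, PKM and STK11. SLC16A4, LDHD, SLC16A7, BSG, MPC1, MPC2, DLD, PDP2 and SLC2A14 were named after their values were seen. So were the luminal and leukocyte markers given singly and the uncalled genes of the closing section. A called gene of the other lists is not reported here.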

Additional observations from a re-analysis of the deposited data

How the results depend on the processing

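Neither leaving out a library nor any fit to counts per library (another filter, DESeq2 or edgeR) was run, since the table holds no value per library. No paired analysis was possible because the labels give the libraries the letters A to D with no shared number. Of the 32 members, 2 rose and 3 fell. An assumed variation of 0.2 or 0.3 left 0 higher, and 0.3 left 1 lower, SLC16A1. In that test a larger assumed variation raises p by construction. Of all genes 2.52% were called at 0.2, beside 5.79% in the deposited table. Adjustment over genes with at least 40 reads gave 3 higher and 4 lower. The share of all such genes called under that adjustment was not computed, so the added calls are not read as particular to the members. Of the list of other glycolysis genes 1 rose and 1 fell at an assumed variation of 0.2, where the main counts were 4 and 2. Of the pentose phosphate list 1 rose and 1 fell at a fold of at least 1.5, and 0 and 0 passed at 0.2. The 1 lower gene of the hypoxia list went to 0 at 0.2. Centring on 10441 protein-coding genes of at least 200 reads (median -0.01) moved log2 folds by 0.01, and a trend with GC and length by -0.11 to 0.10; neither turned the direction of a called gene. Less the median of its neighbours, PDHA1 turned from a log2 fold of 0.68 to -0.09 (-0.0909), and 6 members that were not called changed sign as well: PDK3 (0.75 to -0.16), PDK1 (0.18 to -0.03), SLC2A1, ALDOA, TPI1 and LDHA. PDP1 moved from 0.78 to 0.41. Few reads limit ALDOC, PDK4 and SLC16A1, and no total is known for GAPDH and ENO1.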

Other observations

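Neighbouring pathways were counted in the same way. For scale, 12.6% of all genes with at least 40 reads were called, 5.77% higher and 6.86% lower. Whether a list departs from these shares was not tested. Of 11 pentose phosphate genes, which branch from glycolysis to make NADPH and ribose, 2 rose and 2 fell in the authors' deposited table. PRPS2, a ribose-phosphate pyrophosphokinase, had 722 vector-line and 1255 LKB1-line reads (log2 0.74, adjusted p = 0.000231), and its 24 neighbours on the X chromosome had a median of 0.86. The lactonase PGLS had 684 and 434 reads (log2 -0.71, adjusted p = 0.00156), with neighbours on chromosome 19 at -0.51, and the phosphogluconate dehydrogenase PGD 2892 and 2165 (-0.47, adjusted p = 0.0258), with neighbours at -0.08.

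Of 20 genes of the tricarboxylic acid cycle 0 rose and 0 fell at an adjusted p under 0.05 in the authors' deposited table, nor did any pass with an assumed variation of 0.2 in the negative binomial test; at an unadjusted p under 0.05 2 were higher, ACO1 (log2 0.40, adjusted p = 0.0662) and IDH2 (0.46, adjusted p = 0.143). Of 17 glycogen genes 1 rose, the glycogenin gene GYG2 with 48 and 118 reads (log2 1.24, adjusted p = 0.00164), which lies on the X chromosome among neighbours at 0.87. Of 24 glucose-sensing and hypoxia genes outside glycolysis 1 rose and 1 fell. The carbonic anhydrase CA12 had 549 and 1472 reads (log2 1.37, adjusted p = 7.36e-13), and ARRDC4, an arrestin relative induced by glucose, 89 and 46 (2.01-fold lower, adjusted p = 0.0324). HIF1A had a log2 fold of 0.32 (adjusted p = 0.265), and TXNIP, the closest relative of ARRDC4 in glucose response, one of -0.04.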
